A study of Mus musculus with 4 samples.

Results

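The proteasome genes of cultured peritoneal macrophages are described here, 47 of the 22180 genes measured. A gene was a member when its symbol was Psma, Psmb, Psmc, Psmd, Psme, Psmf or Psmg followed by a number and nothing else. Each gene was read through a probe set that carried its symbol alone, and where there were several, as for Psma5, Psmc2 and Psmg2, through the probe set with the highest mean. The reference annotation has 48 such symbols, and Psma4, an alpha subunit, has no value because its probe sets were shared with another gene. Psmc3ip and Psme3ip1 encode other proteins and were left out by the rule. The interferon-inducible genes Psmb8, Psmb9, Psmb10, Psme1 and Psme2, called the immunoproteasome set below, were set against the 42 remaining members in every array.

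The groups were wild type C57BL/6 mice (B6 below, with no substrain given) and wild type 129S6/SvEvTac mice (129S6 below), males and females of each, fed regular chow and aged 3 months. All mice had received 1 ml of 4% thioglycollate into the peritoneal cavity, a sterile broth that recruits macrophages, and the cavity was washed out 4 days later. The adherent cells were cultured overnight in medium with 10% serum, so the values describe plated cells of an elicited population. A single array was run per strain and sex, 4 in all, each with RNA pooled from 3 mice per the labels. The arrays therefore compare 2 pools of B6 with 2 pools of 129S6, a male and a female pool on each side. No pool was repeated within a strain and sex, so the p-values measure no spread between like pools or between mice. They rest on how far the strain difference differed between the sexes and on a spread shared across genes.

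The proteasome is the protease that degrades ubiquitin-tagged proteins. Its barrel-shaped core particle, called 20S, has outer rings of alpha subunits and inner rings of beta subunits, some of which are catalytic, and a regulatory cap, called 19S, unfolds substrates with ATPases and threads them into the core. In cells exposed to interferon the catalytic subunits Psmb5, Psmb6 and Psmb7 are replaced in newly made cores by Psmb8, Psmb9 and Psmb10, and the activator PA28, made of Psme1 and Psme2, caps the core, which changes the peptides passed on to MHC class I molecules. Macrophages are among the cells that make this immunoproteasome.

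Values are log2 intensities, and differences are B6 minus 129S6 or male minus female on the log2 scale, so 1 corresponds to 2-fold. Across genes, the arrays of a strain correlated at 0.988 (B6) and 0.989 (129S6), and arrays of different strains at 0.969 to 0.980. Xist read 4.05 and 3.91 in the male arrays and 11.88 and 11.86 in the female arrays, as the labels state. The macrophage markers Adgre1 and Cd68 read 11.11 or above in every array. In the female arrays Y-linked genes, which can give only background there, read 2.24 to 4.71. Of the 47 members, 44 had a mean above that of the median gene (5.12). The exceptions were Psma5, Psma8 and Psmb11, whose levels were in or close to the background range.

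No member passed limma's test for strain (0 of 47, with 0.852% of all genes called, 0.338% higher and 0.514% lower in B6) or for sex (0 of 47, with 0.0135% of all genes called), at an adjusted p under 0.05. The smallest adjusted p of a member was 0.193 for strain, for Psma8, and 0.860 for sex. At an unadjusted p under 0.05 there was 1 member for strain, Psma8, and 1 for sex, Psma6, with 16.3% and 5.22% of all genes below that line. The test had little reach, since the smallest strain difference of any gene called was 1.59. The 95% interval of the strain difference lay within 1 of 0 on either side for 40 of the 47 members. Its median half-width was 0.44. It reached further for Psmb8, Psmb9, Psmb10 and Psme1 of the immunoproteasome set, with upper bounds of 1.12, 1.34, 1.18 and 1.09. For Psma8, Psmd10 and Psmg1 the lower bounds were -1.17, -1.28 and -1.11. A 2-fold strain difference thus lay inside the intervals of these genes. In bulk RNA, fewer cells of a type and less RNA per cell cannot be told apart.

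**Figure D1:**
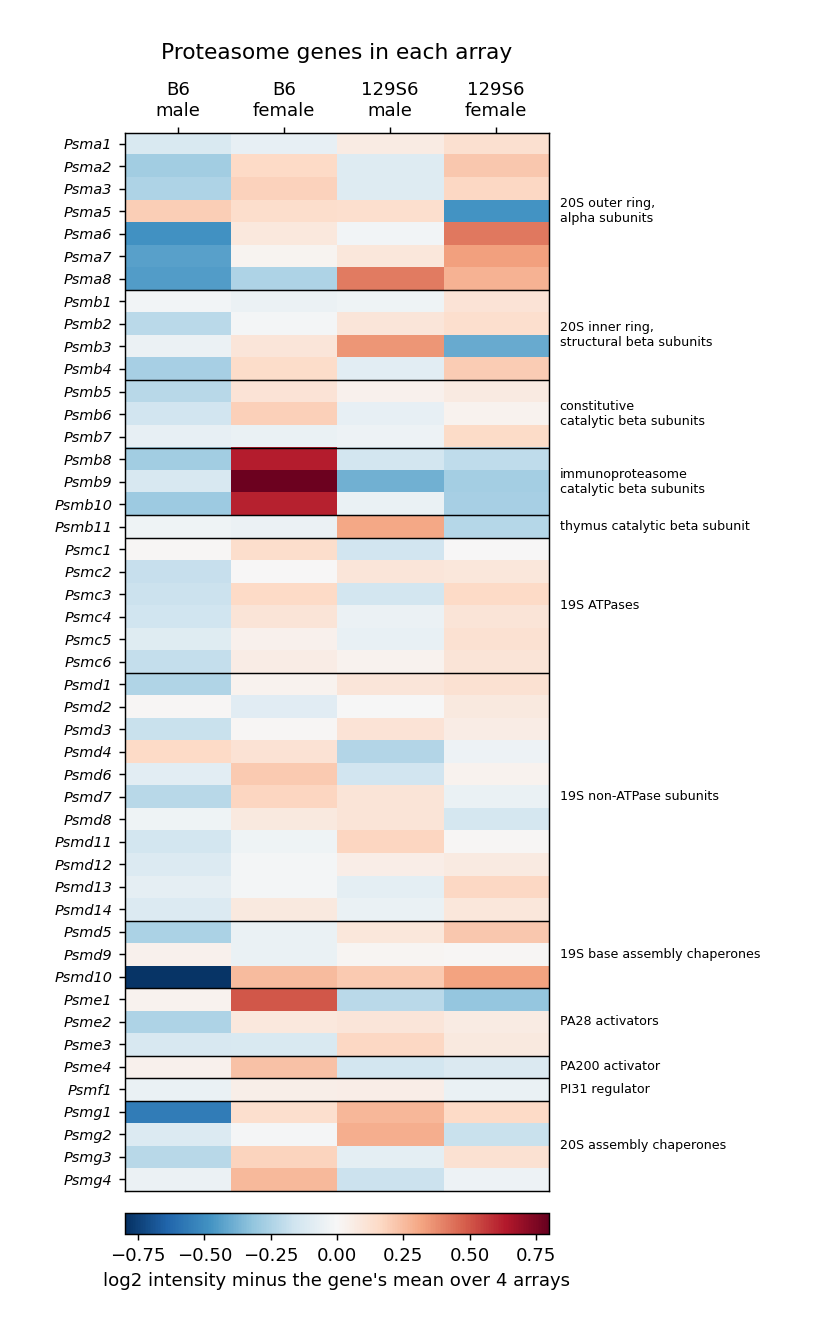
Heat map of the 47 members by role (rows) in the 4 arrays (columns), where color gives log2 intensity minus the gene's own mean over the arrays (red, above the mean, blue, below). Psmb8, Psmb9, Psmb10 and Psme1 are darkest red in the B6 female array, and most rows are blue in the B6 male array.

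The immunoproteasome catalytic genes were highest in the female B6 pool, and the other 3 arrays lay close together. Psmb8, which provides a chymotrypsin-like activity, read 9.07 in the B6 male array and 9.98 in the B6 female array, against 9.21 in the 129S6 male array and 9.15 in the 129S6 female array. The B6 female array alone was high, and the B6 male array was the lowest of the 4. B6 averaged 9.53 ± 0.64 and 129S6 averaged 9.18 ± 0.04 (SD, n = 2 each), a difference of 0.35 (SE 0.28, 95% interval -0.42 to 1.12, limma adjusted p = 0.601). In males the difference was -0.13, while in females Psmb8 was 1.78-fold higher in B6 than in 129S6 (log2 0.83). Without the B6 female array the fitted difference of Psmb8 was -0.10. That fit had no term for sex, so the B6 male array was set against both 129S6 arrays.

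Psmb9, which replaces the caspase-like subunit, had the largest positive strain difference of the 47 members. It read 7.94 and 8.85 in the B6 male and female arrays, against 7.68 and 7.79 in the 129S6 male and female arrays, so both B6 arrays lay above both 129S6 arrays. The difference was 0.66 (SE 0.25, 95% interval -0.02 to 1.34, limma adjusted p = 0.316). It was 0.26 in males and 1.06 in females, a 2.08-fold difference. Without the B6 female array it was 0.20. Psmb9 was also the member with the widest range, 1.17 between its highest and its lowest array. A range of 2-fold or more was met by 2 of the 47 members, Psmb9 and Psmd10, and by 13% of all genes.

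Psmb10, the replacement for the trypsin-like subunit, read 9.75 and 10.66 in the B6 male and female arrays, against 9.99 and 9.78 in the 129S6 male and female arrays. As for Psmb8, the strains overlapped, with the B6 arrays at either end. The difference was 0.32 (SE 0.31, 95% interval -0.54 to 1.18, limma adjusted p = 0.671), made of -0.24 in males and 0.88 in females, where B6 was 1.84-fold higher. Without the B6 female array it was -0.13. The B6 male minus B6 female difference was -0.91 for each of Psmb8, Psmb9 and Psmb10, whereas the 129S6 male minus 129S6 female difference was 0.06, -0.11 and 0.21 in the same order.

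The promoters of these genes are shown because interferon acts on them through short DNA elements. Windows of 300 bases around the RefSeq gene start (250 before and 50 after, assembly GRCm38.p6) were searched on both strands for the core bound by interferon regulatory factors (GAAA, any 2 bases, GAAA), and matches are in capitals. In RefSeq gene order Psmb9, Tap1, Psmb8 and Tap2 follow each other on chromosome 17, within the MHC, and Tap1 and Tap2 encode the peptide transporter. Psmb8 lies on the plus strand (chr17:34197945-34198244), Psmb9 on the minus strand (chr17:34187281-34187580) and Psmb10 on the minus strand (chr8:105938343-105938642).
Psmb8: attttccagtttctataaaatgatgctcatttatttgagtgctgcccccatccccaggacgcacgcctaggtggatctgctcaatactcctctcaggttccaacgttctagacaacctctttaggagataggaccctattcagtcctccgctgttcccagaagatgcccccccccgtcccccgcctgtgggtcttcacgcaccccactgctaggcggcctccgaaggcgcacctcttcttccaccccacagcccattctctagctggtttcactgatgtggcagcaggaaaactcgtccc
Psmb9: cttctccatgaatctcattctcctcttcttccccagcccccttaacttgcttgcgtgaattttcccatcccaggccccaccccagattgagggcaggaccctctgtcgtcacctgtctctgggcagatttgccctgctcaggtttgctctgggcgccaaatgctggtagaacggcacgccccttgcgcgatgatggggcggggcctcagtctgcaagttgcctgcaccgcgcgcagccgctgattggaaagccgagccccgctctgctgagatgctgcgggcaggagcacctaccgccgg
Psmb10: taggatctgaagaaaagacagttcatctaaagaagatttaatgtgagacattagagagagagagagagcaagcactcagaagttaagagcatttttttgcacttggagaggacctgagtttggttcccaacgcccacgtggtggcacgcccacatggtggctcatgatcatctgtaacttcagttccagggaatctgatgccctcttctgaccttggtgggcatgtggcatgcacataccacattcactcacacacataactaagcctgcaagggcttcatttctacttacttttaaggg
These 3 windows did not hold the GAAA pair, which occurs in 3.44% of all 32851 windows. A match or its absence describes the letters in the window and not binding. Other interferon elements were not searched for.

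**Figure D2:**
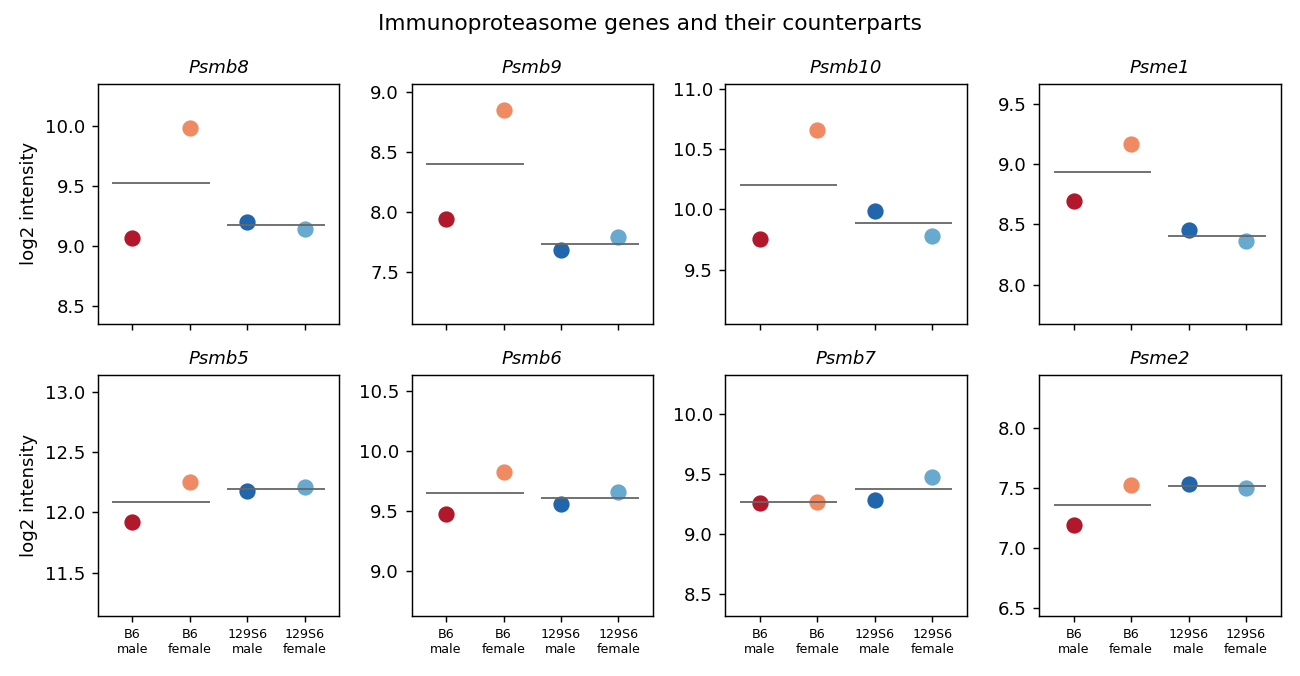
Log2 intensity (vertical axes, each spanning 2 log2 units) of Psmb8, Psmb9, Psmb10 and Psme1 and, below them, Psmb5, Psmb6, Psmb7 and Psme2 in the 4 arrays, with a line at the mean of each strain. The B6 female point stands above the other 3 in the upper panels, at 9.98, 8.85, 10.66 and 9.17, and the lower panels are flatter.

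The PA28 activator genes of the set had different patterns. Psme1, which encodes the alpha subunit of the heteromeric ring, read 8.70 and 9.17 in the B6 male and female arrays, against 8.45 and 8.36 in the 129S6 male and female arrays. Both B6 arrays were above both 129S6 arrays. The difference was 0.53 (SE 0.21, 95% interval -0.04 to 1.09, limma adjusted p = 0.331), with 0.24 in males and 0.81 in females, where B6 was 1.75-fold higher. Without the B6 female array it was 0.29. Psme2, which encodes the beta subunit of the same ring, read 7.19 and 7.52 in the B6 male and female arrays, against 7.53 and 7.50 in the 129S6 male and female arrays. The B6 male array was low and the other 3 lay within 0.03 of each other. The Psme2 difference was -0.16 (SE 0.18, 95% interval -0.65 to 0.32, limma adjusted p = 0.710), with -0.34 in males and 0.02 in females. On the probe set used, Psme2 was thus the member of the set whose B6 female value lay between the 129S6 values. A brighter probe set, shared by Psme2 with 9930111J21Rik1 and 9930111J21Rik2, was higher in B6 in both sexes (difference 0.97). It cannot be assigned to a single gene, so the Psme2 pattern rests on the dimmer probe set.

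Psme1 and Psme2 lie close together on chromosome 14, with Emc9 between them in RefSeq gene order, and their windows are shown for that contrast. Psme1 lies on the plus strand (chr14:55578244-55578543) and Psme2 on the minus strand (chr14:55590972-55591271, with an alternative start whose window overlaps it).
Psme1: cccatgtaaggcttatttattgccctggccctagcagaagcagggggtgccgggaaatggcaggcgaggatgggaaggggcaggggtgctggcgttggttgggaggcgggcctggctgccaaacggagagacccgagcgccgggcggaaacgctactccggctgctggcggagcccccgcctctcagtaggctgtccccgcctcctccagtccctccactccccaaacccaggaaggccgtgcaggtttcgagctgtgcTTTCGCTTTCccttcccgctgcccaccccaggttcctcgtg
Psme2: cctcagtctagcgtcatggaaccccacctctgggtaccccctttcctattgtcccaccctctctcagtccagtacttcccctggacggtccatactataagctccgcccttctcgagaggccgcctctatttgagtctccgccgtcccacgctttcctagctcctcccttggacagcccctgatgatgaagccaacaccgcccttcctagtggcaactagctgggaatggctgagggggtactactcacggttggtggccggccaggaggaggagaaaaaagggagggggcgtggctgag
The Psme1 window held a match to the GAAA pair on its opposite strand, at bases 260 to 269 from its 5′ end, which lie after the start, and the Psme2 window did not hold it. Of the 47 members, 39 had a window, and the GAAA pair was found for 5 of them (3.44% of all windows). They were Psmb3, Psmd4, Psmd9, Psme1 and Psmg4. Of these 5 genes, Psme1 alone belongs to the immunoproteasome set.

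The constitutive catalytic subunits differed little between the strains. Psmb5, the chymotrypsin-like subunit, read 11.92 and 12.25 in the B6 male and female arrays, against 12.18 and 12.21 in the 129S6 male and female arrays, and its difference was -0.11 (95% interval -0.57 to 0.36, limma adjusted p = 0.793). Psmb6, the caspase-like subunit, read 9.48 and 9.82 in the B6 male and female arrays, against 9.56 and 9.66 in the 129S6 male and female arrays, and its difference was 0.04 (95% interval -0.41 to 0.50, limma adjusted p = 0.930). The B6 arrays stood on either side of the 129S6 arrays for Psmb5 and Psmb6, as they did for Psmb8 and Psmb10, but over a narrower span. Psmb7, the trypsin-like subunit, read 9.26 and 9.27 in the B6 male and female arrays, against 9.28 and 9.48 in the 129S6 male and female arrays, and its difference was -0.11 (95% interval -0.55 to 0.32, limma adjusted p = 0.772). Both B6 arrays were below both 129S6 arrays for Psmb7, by as little as 0.01.

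Each immunoproteasome subunit was also set against the constitutive subunit it replaces, with each gene taken as its deviation from its own mean over the 4 arrays, since levels of different probe sets cannot be compared. For Psmb8 less Psmb5 this shift was -0.06 and 0.52 in the B6 male and female arrays, against -0.18 and -0.28 in the 129S6 male and female arrays. For Psmb9 less Psmb6 it was 0.03 and 0.59 in the B6 arrays, against -0.32 and -0.30 in the 129S6 arrays, male first in each. For Psmb10 less Psmb7 it was -0.23 and 0.66 in the B6 arrays, against -0.01 and -0.42 in the 129S6 arrays, in the same order. The B6 female array therefore had the highest shift for all 3 subunit pairs. For the pairs with Psmb8, Psmb9 and Psmb10 the strain difference was 0.12, 0.34 and -0.21 in males, with no common direction, and 0.80, 0.89 and 1.08 in females.

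For the set as a whole, the median deviation of the 5 genes was -0.25 and 0.61 in the B6 male and female arrays, against -0.15 and -0.26 in the 129S6 male and female arrays. The same median over the 42 remaining members was -0.14 and 0.07 in the B6 arrays, against 0.03 and 0.09 in the 129S6 arrays, male first in each. The set minus the remaining members was -0.11 in the B6 male array and 0.55 in the B6 female array, against -0.18 in the 129S6 male array and -0.36 in the 129S6 female array. By this contrast the B6 female array stood apart, and the remaining members showed no such step in it. They were low in the B6 male array, which was the lowest of the 4 for 28 of the 42 (27.7% of all genes). The same array was lowest for 3 of the 5 genes of the set. As B6 minus 129S6 this contrast was 0.48 on average, 0.07 in males and 0.90 in females, and without the B6 female array it was 0.10. As male minus female it was -0.24, made of -0.66 in B6 and 0.18 in 129S6, and without the B6 female array it was 0.15. With 1 array per strain and sex, a difference between the sexes in the strain effect could not be tested.

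**Figure D3:**
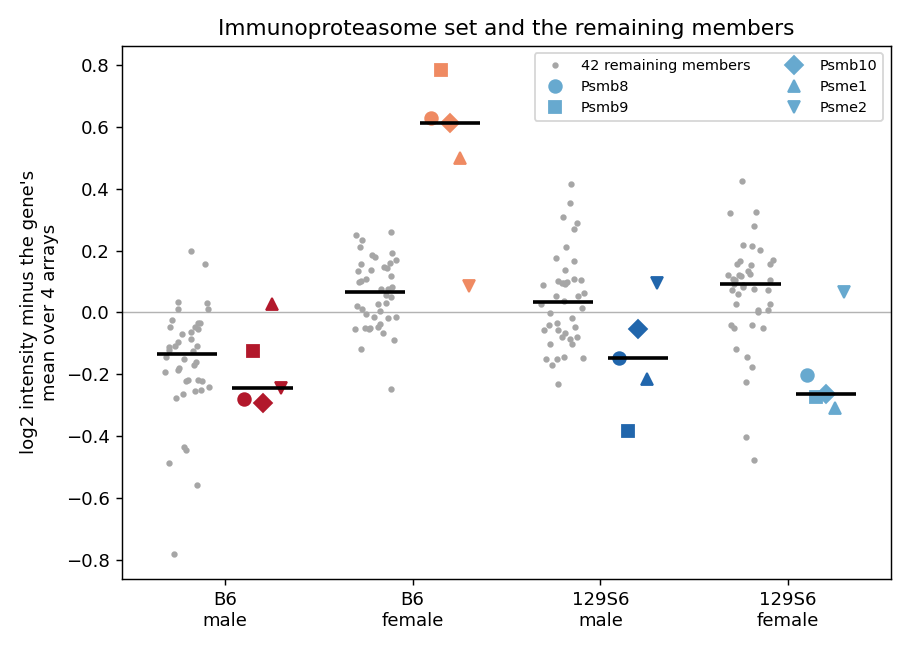
Deviation of each gene from its own mean (log2, vertical axis) in each array, with the 42 remaining members as grey dots, the immunoproteasome set as colored symbols and a bar at the median of each. The bar of the set is at 0.61 for B6 females, while for B6 males, 129S6 males and 129S6 females it is at -0.25, -0.15 and -0.26.

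Genes that act before and after the immunoproteasome were read in the same arrays. Of the 10 genes measured for peptide transport and loading, 7 were highest in the B6 female array, against 19.6% of all genes. By limma 0 were called for strain, and 2 had an unadjusted p under 0.05 (16.3% of all genes). Tap1, a subunit of the peptide transporter, read 9.64 and 10.52 in the B6 male and female arrays, against 9.47 and 9.52 in the 129S6 male and female arrays (difference 0.58, limma adjusted p = 0.365). Tap2, the other subunit, read 8.33 and 8.76 in the B6 male and female arrays, against 8.02 and 8.09 in the 129S6 male and female arrays (difference 0.49, limma adjusted p = 0.301). Tap1 resembled its neighbor Psmb9, with both B6 arrays above both 129S6 arrays and the B6 female array far above the rest. Erap1, which trims peptides in the endoplasmic reticulum, differed by 0.64 and Tapbpl, a peptide editor, by 0.60.

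Interferon gamma signalling genes were mixed, with 4 of 11 highest in the B6 female array (19.6% of all genes). The B6 male array was highest for 5 of 11, among them Ciita and Irf8 (6195 of all 22180 genes). Irf1, a factor that activates Psmb9 and Tap1, read 8.17 and 9.24 in the B6 male and female arrays, against 8.27 and 8.13 in the 129S6 male and female arrays (difference 0.50, limma adjusted p = 0.527). Nlrc5, the activator of MHC class I genes, read 7.67 and 8.41 in the B6 male and female arrays, against 6.98 and 6.67 in the 129S6 male and female arrays (difference 1.22, limma adjusted p = 0.187). Of 19 interferon-stimulated genes such as Ifit2, Rsad2 and Bst2, all 19 were highest in the B6 female array (19.6% of all genes). Their median deviation was -0.52 and 1.14 in the B6 male and female arrays, against -0.30 and -0.31 in the 129S6 male and female arrays. Of 10 interferon gamma-inducible GTPases, 9 were highest in the B6 female array (19.6% of all genes), with a median deviation of 1.03. These gene lists were chosen with earlier results of these data known, so the counts are description only. None of these genes was called for strain or sex by limma. At an unadjusted p under 0.05 there were 5 of the 19 and 3 of the 10 genes for strain (16.3% of all genes). For sex there were 2 of the 19 and 2 of the 10 (5.22% of all genes). Any part of interferon in the B6 female values of Psmb8, Psmb9, Psmb10 and Psme1 was not tested.

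The genes that normally accompany the proteasome without being subunits by name did not share the step. Of the 12 measured, 3 were highest in the B6 female array, and their median strain difference was -0.04. Pomp, the chaperone that matures newly built cores, read 9.54 and 9.85 in the B6 male and female arrays, against 9.40 and 9.72 in the 129S6 male and female arrays (difference 0.14, limma adjusted p = 0.718). Pomp was higher in females by about the same amount in B6 and 129S6. Nfe2l1 is a factor that raises transcription of constitutive proteasome subunits when degradation is blocked. It read 10.43 and 10.62 in the B6 male and female arrays, against 10.59 and 10.72 in the 129S6 male and female arrays. Its difference was -0.13 (limma adjusted p = 0.730).

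The 42 remaining members lay slightly below 0, with a median strain difference of -0.08 (-0.02 over all genes) and 33 of the 42 lower in B6, where 52.5% of all genes were. The sizes were small, since 33 of the 42 differed by under 0.25 and 40 by under 0.5. In males, 0 of the 47 members were higher in B6 by 0.5 or more (10.7% of all genes) and 4 were lower by that much, Psma7, Psma8, Psmd10 and Psmg1 (13.1% of all genes). In females, 6 were higher by 0.5 or more (9.75% of all genes) and 1, Psma8, was lower by that much (13.5% of all genes). Over all 47 members, both B6 arrays lay above both 129S6 arrays for 6 (22.8% of all genes) and below them for 13 (26.1% of all genes). The 6 were Psma5, Psmb9, Psmc1, Psmd4, Psme1 and Psme4.

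**Figure D4:**
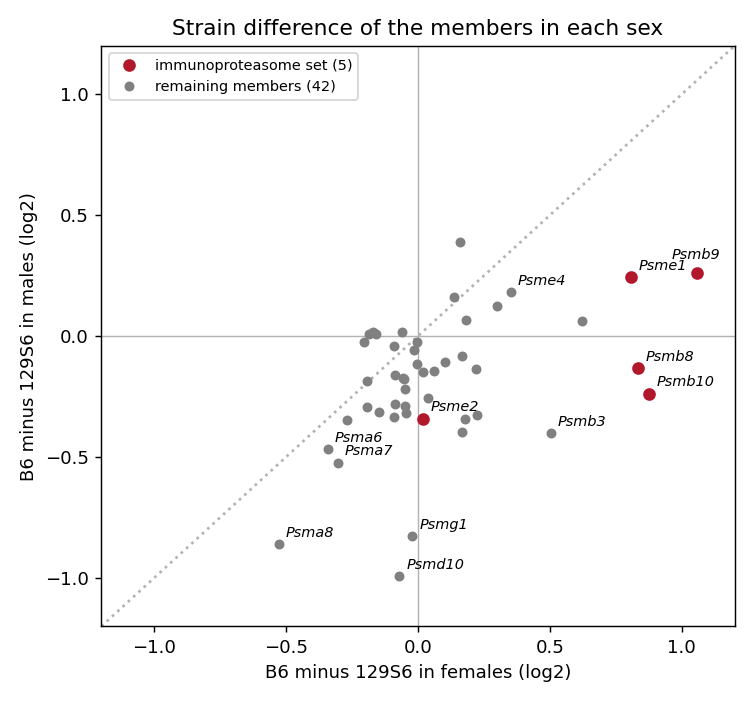
B6 minus 129S6 in females (horizontal axis, log2) against the same in males (vertical axis, log2) for the 5 immunoproteasome genes (red) and the 42 remaining members (grey), with equal values on the dotted line. Psmb9, Psmb10, Psmb8 and Psme1 lie at -0.24 to 0.26 in males and 0.81 to 1.06 in females, while Psmd10 and Psmg1 lie at -0.99 and -0.83 in males and near 0 in females.

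The alpha subunits, which form the gated outer rings of the core, leaned lower in B6, as did the remaining members as a whole (33 of 42). Of 7 measured, 6 had a negative strain difference (52.5% of all genes), with a median of -0.19. In the B6 male array 6 of the 7 were lower than in the B6 female array (47.7% of all genes). Psma6 read 9.68 and 10.25 in the B6 male and female arrays, against 10.15 and 10.59 in the 129S6 male and female arrays (difference -0.41, SE 0.16, 95% interval -0.84 to 0.03, limma adjusted p = 0.326). Psma7 read 8.82 and 9.28 in the B6 male and female arrays, against 9.35 and 9.58 in the 129S6 male and female arrays (difference -0.41, SE 0.16, 95% interval -0.86 to 0.03, limma adjusted p = 0.331). For Psma7 both B6 arrays were below both 129S6 arrays, and for Psma6 the B6 female array was above the 129S6 male array. Without the B6 male array the differences were -0.12 for Psma6 and -0.19 for Psma7. Psma8, the subunit of the testis proteasome, read 4.40 and 4.60 in the B6 male and female arrays, against 5.27 and 5.13 in the 129S6 male and female arrays. Its difference of -0.69 (SE 0.17, 95% interval -1.17 to -0.22, limma adjusted p = 0.193) had the only strain interval of a member that left out 0, at a level near the probe background. Psma5, the other dim alpha subunit, read 4.19 to 4.87 over the 4 arrays.

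Of the 4 structural beta subunits, Psmb1, Psmb2 and Psmb4 had differences of -0.07, -0.23 and -0.12. Psmb3 differed from them in that its strain difference turned with sex. It read 6.33 and 6.48 in the B6 male and female arrays, against 6.73 and 5.98 in the 129S6 male and female arrays, and the fitted difference was 0.05 (SE 0.27, 95% interval -0.69 to 0.79, limma adjusted p = 0.946). The 129S6 arrays stood at either end, with the B6 arrays between them. Psmb11, the catalytic subunit of the thymus proteasome, read 3.71 to 4.25, within the background range.

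The subunits of the regulatory cap differed little between the strains. The 6 ATPases, Psmc1 to Psmc6, had strain differences from -0.18 to 0.15 with a median of -0.06. The 11 non-ATPase subunits had differences from -0.21 to 0.27 with a median of -0.08. The highest of these was Psmd4, a ubiquitin receptor, with a difference of 0.27. Psmd14, the deubiquitinase of the cap, differed by -0.04. No ATPase or non-ATPase subunit had a strain difference of 0.5 or more in either sex.

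Among the chaperones that build the cap and the core, Psmd10 and Psmg1 had the largest negative strain differences of members well above the background. Psma7 and Psma6 came close to Psmg1, at -0.41 each. Psmd10, also called gankyrin, read 9.50 and 10.54 in the B6 male and female arrays, against 10.50 and 10.61 in the 129S6 male and female arrays. The B6 male array alone was low. The strain difference was -0.53 (SE 0.27, 95% interval -1.28 to 0.22, limma adjusted p = 0.427), with -0.99 in males and -0.07 in females, and it was -0.015 without the B6 male array. Psmg1, which pairs with Psmg2 to assemble the alpha ring, read 6.85 and 7.54 in the B6 male and female arrays, against 7.68 and 7.56 in the 129S6 male and female arrays. The B6 male array was again the low value, and the difference was -0.42 (SE 0.25, 95% interval -1.11 to 0.26, limma adjusted p = 0.480), with -0.83 in males and -0.02 in females, and it was -0.078 without the B6 male array. The other chaperones did not share this. Psmg2, Psmg3 and Psmg4 differed by -0.11, -0.04 and 0.21, and Psmd5 and Psmd9 by -0.31 and -0.02.

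Among the other activators, Psme3, a nuclear PA28 ring, read 7.72 and 7.73 in the B6 male and female arrays, against 8.01 and 7.92 in the 129S6 male and female arrays (difference -0.24, 95% interval -0.67 to 0.18, limma adjusted p = 0.512). Psme4, the PA200 activator linked to histone degradation, read 9.66 and 9.86 in the B6 male and female arrays, against 9.48 and 9.51 in the 129S6 male and female arrays (difference 0.27, 95% interval -0.17 to 0.70, limma adjusted p = 0.487). The B6 arrays were both below for Psme3 and both above for Psme4. Psmf1, a regulator that binds the core, differed by under 0.01 in absolute value on average.

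**Figure D5:**
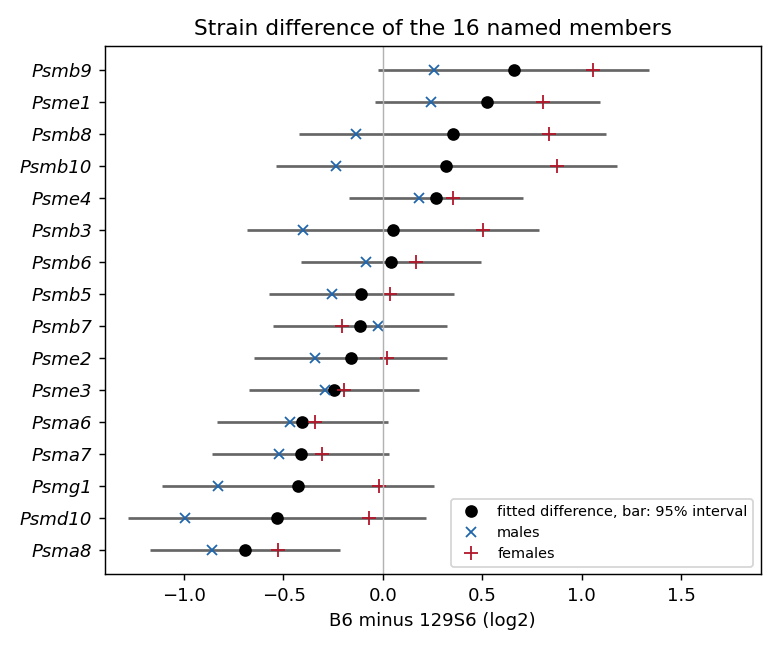
Strain difference (B6 minus 129S6, log2, horizontal axis) of the 16 members named with values in every array, with the limma estimate as a black point, its 95% interval as a bar, and the differences in males (blue cross) and females (red plus). Every interval holds 0 except that of Psma8, and the female value lies to the right of the male value for all but Psmb7.

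By sex, the members leaned toward the female pools, and mostly within B6. The fitted male minus female difference was negative for 37 of 47 members (47.4% of all genes). In B6, 41 of the 47 members were lower in the male than in the female array (47.7% of all genes), and in 129S6, 29 of 47 (47.9% of all genes). The median male minus female difference was -0.20 in B6 and -0.06 in 129S6, while over all genes it was 0.02 in each. The B6 male array was the lowest of the 4 for 31 of 47 members (27.7% of all genes) and the 129S6 female array the highest for 19 (27.6% of all genes). For 13 the B6 female array was the highest (19.6% of all genes). These were Psmb8, Psmb9, Psmb10, Psme1 and 9 of the 42 remaining members. Both male arrays lay below both female arrays for 16 members (12.3% of all genes) and above them for 2, Psmb11 and Psmd9 (14.7% of all genes). Psma6 had the only sex interval of a member that left out 0, with a difference of -0.51 (95% interval -0.94 to -0.08, limma adjusted p = 0.860). The largest sex difference was that of Psmd10, at -0.57 (limma adjusted p = 0.860), made of -1.03 in B6 and -0.11 in 129S6.

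Marker genes of macrophages and of other cells were read beside these values. Of 8 macrophage markers 0 were called for strain by limma, but 6 had an unadjusted p under 0.05 (16.3% of all genes). Cd14 read 9.30 and 10.04 in the B6 male and female arrays, against 11.26 and 11.37 in the 129S6 male and female arrays. Fcgr1 read 9.68 and 8.97 in the B6 male and female arrays, against 7.09 and 8.12 in the 129S6 male and female arrays. Neither passed the test, and their differences had opposite signs. The 6 markers of resident peritoneal macrophages were lower in both B6 arrays than in both 129S6 arrays (26.1% of all genes). Of them 3, Alox15, Cxcl13 and Prg4, were called lower in B6 by limma (0.514% of all genes). Their median deviation was -1.38 and -1.29 in the B6 male and female arrays, against 1.28 and 1.58 in the 129S6 male and female arrays. Single markers also differed within B6, in both directions. In the B6 male and female arrays Timd4 read 6.65 and 8.12, and Alox15 read 6.74 and 5.79. Of 10 markers of mesothelial cells and fibroblasts, Dcn, Pdgfra and Sparc were called lower in B6 (0.514% of all genes). Of the same 10, 8 had a negative strain difference, while Upk3b (0.25) and Lum (0.09) had a positive one. Of 6 markers of eosinophils and mast cells, Siglecf was called higher in B6 (0.338% of all genes). Of 5 markers of T and NK cells, cells that secrete interferon gamma, 3 were highest in the B6 female array (19.6% of all genes). Their summed linear levels were 71.3 and 94.8 in the B6 male and female arrays, against 73.6 and 70.5 in the 129S6 male and female arrays. These markers read 3.07 to 4.97, at or near the background. Ifng, the interferon gamma gene, was highest in the B6 male array and also close to the background. It read 5.12 and 4.78 in the B6 male and female arrays, against 4.84 and 4.46 in the 129S6 male and female arrays. The part of any of these cells in the proteasome values was not tested.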

How the data were processed

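From each pool, 250 ng of RNA was labelled for an Affymetrix mouse array that covers whole transcripts. Affymetrix Expression Console was used by the authors to turn the scans into the deposited log2 intensities of probe sets. Its version, background correction and summarization are not given in the sources used here. The values ran from 0.79 to 13.81 with array medians of 4.85 to 4.87, so they were used as given. Of 41345 probe sets, the platform annotation gave a single symbol to 23521, several to 1820 (not used), and did not list 16004. Keeping the brightest probe set of each gene left 22180 genes. RefSeq gene numbers (GRCm38.p6) matched 23328 of the single-symbol probe sets and changed no symbol.

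Strain and sex were additive terms of a linear model, fitted by lmFit and eBayes of limma 3.58.1 under R 4.3.3 and tested on simulated data. The model had 1 residual degree of freedom and a prior worth 3.18 more, so the spread is mainly that shared across genes. That 1 degree of freedom holds the difference between the sexes in the strain effect, which widens the SE where it is large. P-values were adjusted over all genes by the Benjamini-Hochberg method and called under 0.05. The methods of the study name no test for these arrays. Arrays carry no count depth, and their number limits the precision. Promoter windows came from RefSeq. Figures were drawn with matplotlib 3.10.9.

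Members named with values in every array were Psmb5 to Psmb10 and Psme1 to Psme4, the 8 with the largest strain difference, the 4 with the largest sex difference and the 4 whose strain difference changed most with sex, 16 in all. The other 31 are given by range and count, some with a single value in a clause. The members, roles and gene lists were chosen with earlier results of these data known. Alternatives left out a model term, each array in turn, dim genes or single members, or changed the normalization, the variance trend or the probe set rule. Where an array was left out, the strain fit had no sex term and the sex fit no strain term. A strain difference given without an array therefore mixes strain with sex. The methods of the study give a larger number of mice per pool than the labels, whose number is used here.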

Additional observations from a re-analysis of the deposited data

Results flagged for a closer look

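Psmb3 was the member whose strain difference was at least 1.2-fold in each sex and opposite in sign. B6 minus 129S6 was -0.40 in males and 0.50 in females. The difference between the sexes was not tested, because each strain and sex had a single array. The groups were too small for a search for single outlying arrays.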

How the results depend on the processing

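No member was called for strain or sex under any setting tried, and the smallest adjusted p of a named member was 0.0858, for Psmd10 without the B6 female array. Over all genes, the strain calls moved from 189 to 431 without the sex term, 1256 with a variance trend, 589 among brighter genes, 81 after quantile normalization, and 84 to 564 when an array was left out. The 3 sex calls became 1 without the strain term, 5 with a trend, 1 after quantile normalization and 0 to 0 when an array was left out. The causes were not tested. The strain contrast of the immunoproteasome set (0.48) was 0.10 to 0.78 when an array was left out, with 0.10 without the B6 female array, and 0.44 to 0.53 otherwise. Without Psme2, chosen after seeing the data, it was 0.53. The sex contrast (-0.24) ran from -0.63 to 0.15 when an array was left out. The median strain difference of the remaining members (-0.08) ran from -0.18 to -0.01. Of 143 alternative values over the 16 named members, 135 kept their direction and 8 were reversed, all when an array was left out. Leave-one-out ranges of these were -0.13 to 0.77 for Psmb10, -0.33 to 0.43 for Psmb3, -0.27 to 0.055 for Psmb5, -0.13 to 0.21 for Psmb6, -0.10 to 0.81 for Psmb8 and -0.33 to 0.0045 for Psme2. Values that kept their sign also moved with the array left out, as for Psmb9 (0.20 to 1.11), Psme1 (0.29 to 0.76), Psmd10 (-1.05 to -0.015), Psmg1 (-0.77 to -0.078), Psma6 (-0.69 to -0.12) and Psma7 (-0.64 to -0.19). The negative values of Psmb10 (-0.13), Psmb8 (-0.10), Psmb6 (-0.13) and Psmb3 (-0.02) arose without the B6 female array, those of Psmb3 (-0.33) without the 129S6 female and Psmb6 (-0.01) without the 129S6 male array, and the positive values of Psmb5 (0.055) and Psme2 (0.0045) without the B6 male array. Psma8 was too dim for the fit on brighter genes. The sex term paired the male and the female arrays across strains, and the fit without it is the unpaired one. With 1 array per strain and sex, strain, pool and culture cannot be told apart within a sex, and signals near background limit Psma5, Psma8 and Psmb11.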

Other observations

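A probe set annotated to Psme2 together with 9930111J21Rik1 and 9930111J21Rik2 was not used for Psme2, since it cannot be assigned to a single gene. It read 9.15 and 9.20 in the B6 male and female arrays, against 8.36 and 8.05 in the 129S6 male and female arrays, a difference of 0.97. The brighter of the probe sets shared by Psma4 and AY074887 read 9.18 and 9.49 in the B6 male and female arrays, against 9.42 and 9.51 in the 129S6 male and female arrays, a difference of -0.13.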
